A study of Mus musculus with 768 samples.

Results

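Glycolysis, lactate and pyruvate handling were followed through 31 genes, chosen by name and all found among the 32679 genes of the count table. They cover glucose uptake and hexokinases, the enzymes of glycolysis, the regulators of phosphofructokinase, lactate dehydrogenase and the monocarboxylate carriers, mitochondrial pyruvate entry, and glycogen. Their levels were read in single cells sorted from the mouse dentate gyrus for Nestin:GFP, a fluorescent reporter under control of Nes, a gene of neural stem cells. The mimic group held 4 male mice (numbers 2, 4, 6 and 8) given a miR-132 mimic, an oligonucleotide that acts as the mature microRNA. The control group held 4 male mice (1, 3, 5 and 7) that had received a negative control oligonucleotide. All 8 mice carried the Nestin:GFP reporter, were aged 2 months, and each weekly injection over 5 weeks held 150 pmol of its oligonucleotide with lipofectamine 2000 in a volume of 3 µl. The series text puts "AD" before the tissue without saying what it stands for. The sort took place on 17 April 2018 for mice 1 to 4 and 2 days later, on 19 April, for mice 5 to 8, with both treatments present on each day. Wells were tied to mice through the sample descriptions. The sample titles tie them differently, giving the same mouse for 96 of the 768 wells. By the titles, many of the 768 wells also fall in the other treatment. Which labels are right was not settled. The treatment of those wells is therefore uncertain in every comparison of mimic with control mice. The gate did not give stem cells alone, so each member was read in the cell classes that the gate held, and then between treatments.

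Glycolysis splits glucose into pyruvate in the cytosol and yields ATP without oxygen. Pyruvate either enters mitochondria through the pyruvate carrier and pyruvate dehydrogenase, or is turned into lactate by lactate dehydrogenase and leaves the cell through monocarboxylate carriers. Many steps have several isozymes, encoded by separate genes, that differ in kinetics and in the tissues that use them. In the brain, astrocytes are known for high glycolysis and for glycogen stores, and lactate passes between astrocytes, oligodendrocytes, vessels and neurons. Hypoxia-inducible factors bind a short DNA core, ACGTG, and genes of glycolysis are among their known targets.

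Of 768 wells, 675 had at least 50000 counts and at least 1000 genes with a count and were kept, which left 75 to 92 wells per mouse. Kept wells had a median of 646537 counts and 2741 genes, and a mouse summed to 43889169 to 66897586 counts. Clustering without the 31 members and without 69 further genes of the pathway gave 5 classes that are used here, an oligodendrocyte-like class (the largest), an endothelial-like class, and 95 astrocyte-like, 69 pericyte-like and 38 neuroblast-like wells. The other genes of the same wells did form these clusters, so the classes and the members share their libraries. A mouse entered a class with at least 5 wells, which kept all 8 mice for the oligodendrocyte-like, astrocyte-like and pericyte-like classes, 7 for the endothelial-like class (all but control mouse 1) and 3 for the neuroblast-like class (mimic mouse 2, control mice 1 and 3). Every class had all markers of its own list at 50 CPM (counts scaled to a fixed total per well) or more, except 8 of 9 for the neuroblast list. Markers of other types were present as well. In pericyte-like wells, 3 of the 10 astrocyte markers reached that level, with a summed 3411 to 5313 CPM per mouse, against 25975 to 30154 CPM in astrocyte-like wells. In endothelial-like wells all 4 erythroid genes reached it, at a summed 0 to 8833 CPM per mouse. Smooth muscle markers reached it in pericyte-like wells for 4 of 6 genes, at 2686 to 5402 CPM, and 70 of the oligodendrocyte-like wells came from a cluster led by immediate-early genes such as Egr2, Arc and Fos. The part of these markers in the results was not tested. In 16 kept wells with over 6000 genes each, the number of genes was 10045 or more, against at most 5015 in all other wells. These 16 wells came from all 8 mice. The labels give 94 cells sorted per mouse, against 96 wells per mouse. Whether the 16 wells held more than 1 cell was not tested. They stayed in the sums over all kept wells, also between treatments, and in no class.

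The promoter windows of the lactate dehydrogenase pair and of 2 further members whose class pattern the results turn on are shown here because they differ in how often they hold the hypoxia core. Each window runs from 250 bases before to 50 bases after a start site in RefSeq (build GRCm38.p6), is written in the direction of the gene, and has ACGTG, or CACGT for a core on the other strand, in capitals. A capital CACGTG holds a core on both strands. The windows lie at chr7:46845554-46845853 (Ldha, plus strand), chr3:104638414-104638713 (Slc16a1, plus strand), chr6:142507908-142508207 (Ldhb, minus strand) and chr11:78322823-78323122 (Aldoc, plus strand).
Ldha: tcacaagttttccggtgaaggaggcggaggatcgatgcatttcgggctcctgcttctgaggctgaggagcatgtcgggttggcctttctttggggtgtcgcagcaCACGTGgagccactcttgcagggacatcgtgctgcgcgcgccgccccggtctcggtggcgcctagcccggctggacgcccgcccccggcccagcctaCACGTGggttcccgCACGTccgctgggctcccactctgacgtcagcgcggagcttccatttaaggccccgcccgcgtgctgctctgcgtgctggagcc
Slc16a1: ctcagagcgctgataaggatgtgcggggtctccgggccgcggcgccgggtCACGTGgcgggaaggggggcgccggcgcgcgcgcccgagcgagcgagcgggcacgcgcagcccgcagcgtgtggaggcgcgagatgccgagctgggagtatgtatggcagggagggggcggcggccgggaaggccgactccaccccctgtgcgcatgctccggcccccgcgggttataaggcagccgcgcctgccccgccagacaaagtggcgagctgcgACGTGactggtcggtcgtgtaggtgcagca
Ldhb: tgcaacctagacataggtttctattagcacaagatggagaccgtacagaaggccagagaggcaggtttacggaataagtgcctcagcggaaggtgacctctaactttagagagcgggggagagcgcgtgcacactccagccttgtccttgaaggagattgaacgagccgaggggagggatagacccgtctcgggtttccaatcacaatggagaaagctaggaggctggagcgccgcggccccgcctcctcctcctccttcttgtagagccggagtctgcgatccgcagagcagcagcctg
Aldoc: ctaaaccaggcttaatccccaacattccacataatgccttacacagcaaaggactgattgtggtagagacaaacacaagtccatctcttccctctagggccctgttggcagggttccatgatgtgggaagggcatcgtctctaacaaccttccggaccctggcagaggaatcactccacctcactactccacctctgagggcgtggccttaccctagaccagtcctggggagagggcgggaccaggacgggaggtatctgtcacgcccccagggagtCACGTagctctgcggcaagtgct

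Counted over both strands, the Ldha window shown holds 5 cores, that of Slc16a1 3, that of Aldoc 1 and that of Ldhb 0. Ldha and Aldoc each have a second window in the table, at a start site further along the gene (chr7:46846832-46847131 and chr11:78323948-78324247), and neither holds a core. Of the 29 members with a window in the table, 16 (55.17%) hold the core in at least 1 window, against 21.78% of 27025 genes. Counted by window, the core is in 20 of 46 windows of the members (43.48%), against 19.62% of 32851 windows. A match describes the letters of the window only, and no binding was measured here.

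The mature miR-132-3p is shown because its mimic is the treatment, with the seed (bases 2 to 8) in capitals. Its locus in the RefSeq annotation is chr11:75173723-75173744 on the plus strand.
miR-132-3p: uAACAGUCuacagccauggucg
The 7-base match to the seed, GACTGTT, occurs in the longest 3′ UTR of 5 of the 31 members, against 12.1% of the 17976 genes of the table with an annotated 3′ UTR. Hk2, Aldoa, Pdha1 and Pdk4 hold 1 match each and Pfkfb2 holds 2. The longer match GACTGTTA, with 8 bases, is in Pdha1 and Pfkfb2.

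Most of the pathway was highest in astrocyte-like wells. As the mean CPM over mice, 19 of the 31 members were highest there, against 19.7% of the 15025 genes tested between classes. Pfkm, Aldoc, Eno1, Ldhb and Pygb did not overlap with the class of the next highest mean in any mouse, a pattern found in 1.43% of all tested genes. Pygb did overlap with pericyte-like wells, where control mouse 3 and mimic mouse 4 had 259.1 and 481 CPM. Hk1, Pfkl, Ldha and Slc16a1 were highest in endothelial-like wells (background 17.3%), and Aldoa, Pkm and Slc16a3 in pericyte-like wells (background 18.7%). Eno2, Slc16a7 and Pfkfb2 were highest in oligodendrocyte-like wells (background 12.8%), and Slc2a3 and Mpc2 in neuroblast-like wells (background 31.5%). The neuroblast-like means rest on 3 mice, and for Eno2 all 38 neuroblast-like wells together averaged 28.6 CPM, against 14.7 CPM per oligodendrocyte-like well. Only the order of the class means is described by these counts, and some ranks rest on few mice. Slc16a3 was at 89.1 CPM in pericyte-like wells of mimic mouse 4 and at 0 in every other mouse of that class. Hk2 was at 0 in every astrocyte-like mouse but control mouse 3 and mimic mouse 6. By the median mouse, Hk1 was higher in astrocyte-like wells (59.4 CPM) than in endothelial-like wells (44.02 CPM).

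**Figure D1:**
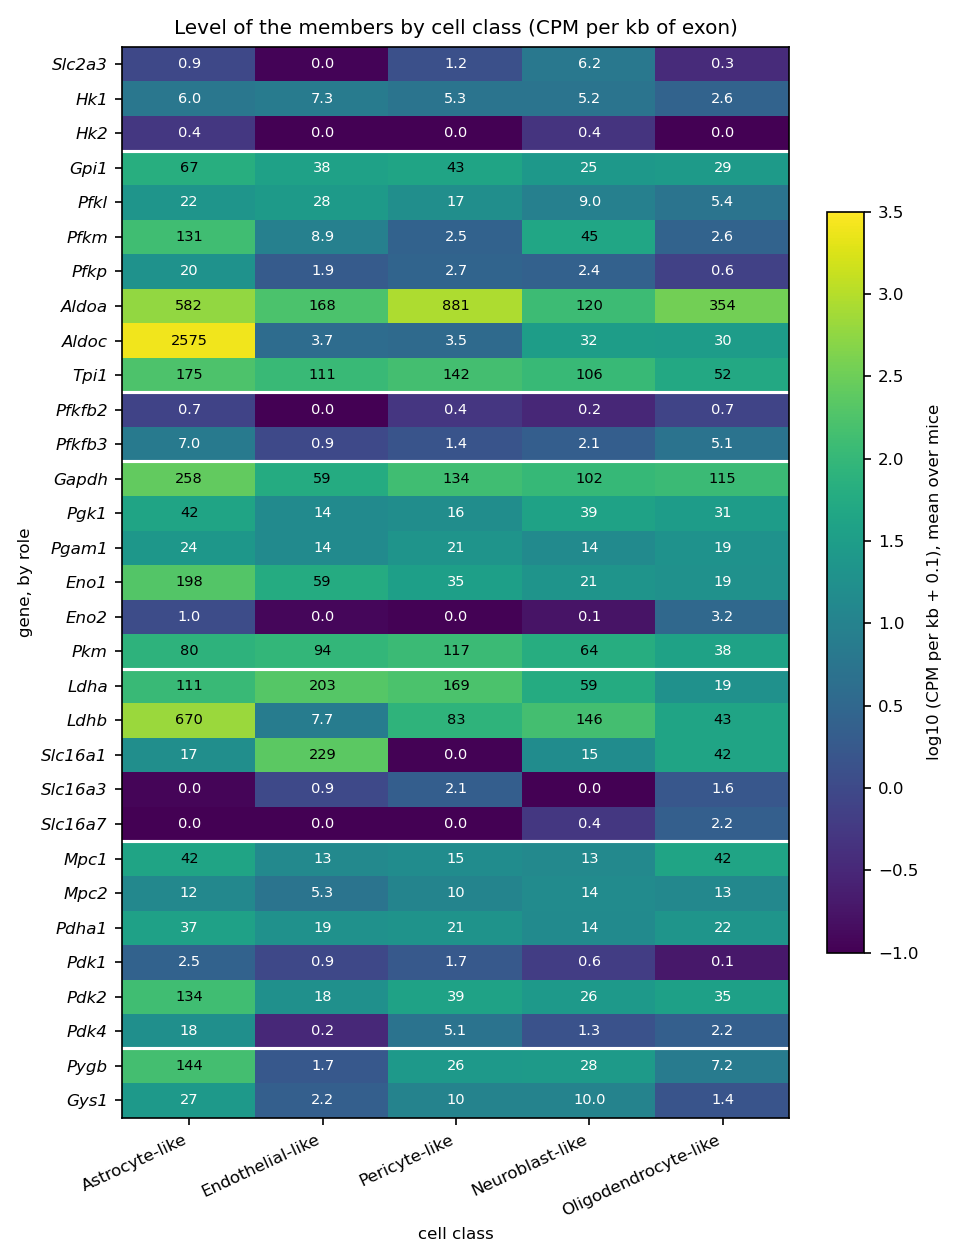
Mean level over mice of each of the 31 members (rows, ordered by role) in 5 cell classes (columns), printed as CPM per kb of exon and coloured on a log10 scale. Aldoc in astrocyte-like wells has the highest level in the grid, and Slc16a1 is near 0 in pericyte-like wells.

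Summed over the 31 members, the pathway took 1.78 ± 0.445% of all counts in astrocyte-like wells (SD, n = 8 mice). The same sum took 0.608 ± 0.125% in pericyte-like wells (n = 8), 0.438 ± 0.112% in endothelial-like wells (n = 7), 0.319 ± 0.0355% in neuroblast-like wells (n = 3) and 0.324 ± 0.0378% in oligodendrocyte-like wells (n = 8). The lowest astrocyte-like mouse stood at 1.10%, above the highest pericyte-like mouse at 0.801%. A large part of the astrocyte-like sum was 1 gene, Aldoc. It averaged 8401 ± 2422 CPM there, against 11.5 ± 32.2 CPM in pericyte-like and 99.3 ± 89.9 CPM in oligodendrocyte-like wells. Whether the classes stay apart without Aldoc was not tested.

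Members were tested between classes with edgeR's quasi-likelihood test on counts summed per mouse and class, with the mouse as a term and Benjamini-Hochberg adjustment over all 15025 genes. A call is an adjusted p below 0.05. All 31 members were tested in each contrast. Of these, 7 were higher and 1 was lower in astrocyte-like than in oligodendrocyte-like wells, beside a background of 7.29% higher and 6.84% lower among all tested genes. In endothelial-like over oligodendrocyte-like wells 2 were higher (background 7.35%) and 8 were lower (background 11.4%). In pericyte-like over oligodendrocyte-like wells 1 was higher (background 5.67%) and 5 were lower (background 17%). In pericyte-like over endothelial-like wells 2 were higher (background 3.32%) and 1 was lower (background 6.37%). In astrocyte-like over endothelial-like wells 9 were higher (background 10.3%) and 1 was lower (background 6.1%). In neuroblast-like over oligodendrocyte-like wells 0 were higher (background 1.98%, DESeq2 called 1) and 1 was lower (background 2.8%). There, 5 members (16.1%) had an unadjusted edgeR p below 0.05 in either direction, near the 17.5% of all tested genes. DESeq2 called more members, with 12 higher in astrocyte-like over oligodendrocyte-like, 4 higher in endothelial-like over oligodendrocyte-like, 4 higher and 9 lower in pericyte-like over oligodendrocyte-like, 6 higher and 4 lower in pericyte-like over endothelial-like and 16 higher in astrocyte-like over endothelial-like wells. The higher members took a larger share than the background in both astrocyte-like contrasts. So did the 8 of 31 lower in endothelial-like than in oligodendrocyte-like wells (background 11.4%). The 5 of 31 lower in pericyte-like than in oligodendrocyte-like wells were near their background.

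The log2 folds below are relative to the scaling of the fit, whose median over all tested genes was not 0. The median log2 fold of the members was 1.03 in astrocyte-like over oligodendrocyte-like wells, where all tested genes had −0.42, and 2.24 in astrocyte-like over endothelial-like wells, where they had 0.45. It was −1.73 in endothelial-like over oligodendrocyte-like wells (all genes −0.89), −1.17 in pericyte-like over oligodendrocyte-like wells (all genes −1.55), −0.25 in pericyte-like over endothelial-like wells (all genes −0.51) and −0.72 in neuroblast-like over oligodendrocyte-like wells (all genes −0.47). The neuroblast-like direction rests on the scaling, since library size alone gave 0.11 for the members and 0.18 for all genes; of all calls there, 41.45% were higher, 56.48% with library size alone and 29.97% with DESeq2. These medians stay as they are when genes at 0 in a class are put at their bound. At most 2 of the 31 members had such a bound in any contrast, so the medians could hardly have moved.

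**Figure D2:**
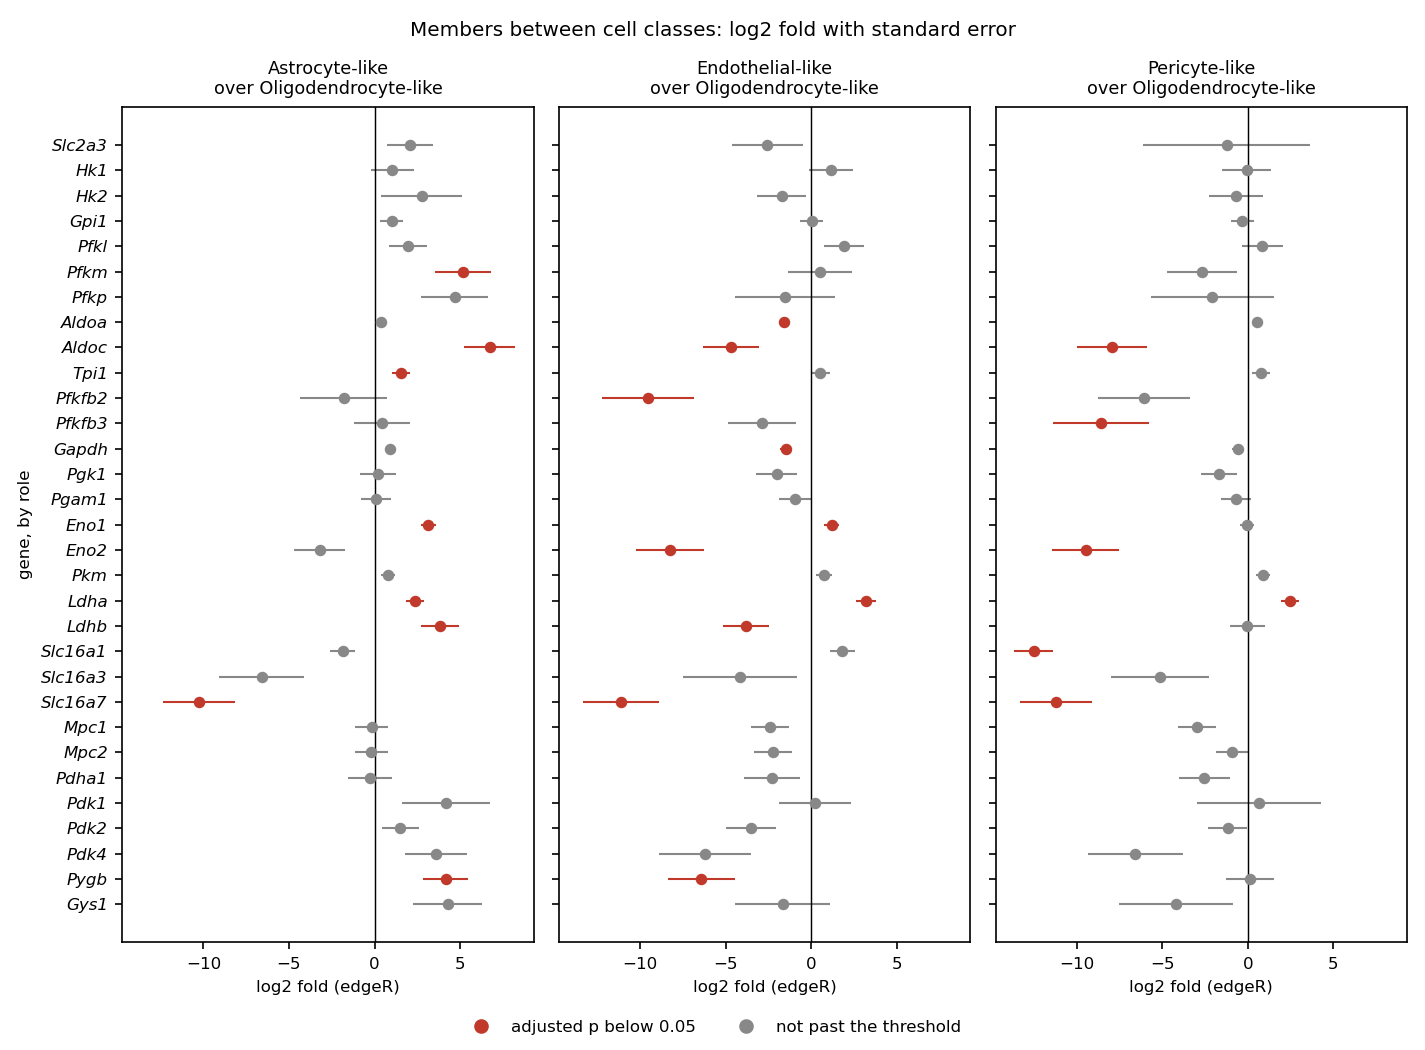
Fitted log2 fold with its standard error (points and bars, x axis) for the 31 members (rows, by role) in 3 contrasts with oligodendrocyte-like wells. Red marks an adjusted p below 0.05. Ldha lies on the higher side in all 3 panels, Aldoc on the higher side in the astrocyte-like panel and on the lower side in the other panels, and folds of genes near 0 counts in a class depend on the fit's prior count.

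Glucose uptake and the first phosphorylation were the least resolved step. Hk1, the main hexokinase of brain, averaged 62.7 ± 58.6 CPM in endothelial-like (n = 7), 50.8 ± 22.3 CPM in astrocyte-like (n = 8), 45.4 ± 60.7 CPM in pericyte-like (n = 8), 44.7 ± 48.3 CPM in neuroblast-like (n = 3) and 22.1 ± 11.4 CPM in oligodendrocyte-like wells (n = 8). No neighbours in that order were separated beyond their spread. Hk2, the insulin-regulated hexokinase of muscle and fat, was listed at 0 in every endothelial-like well and reached 18.7 CPM at most in any mouse of the astrocyte-like class. Slc2a3, the glucose transporter of neurons, averaged 44.9 ± 76.8 CPM in neuroblast-like wells, and control mouse 1 alone carried that mean with 133.7 CPM, against 0 and 1.16 CPM in mimic mouse 2 and control mouse 3. None of these 3 genes was called in any contrast.

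Phosphofructokinase, the committed step of glycolysis, used different subunit genes in different classes. Pfkm, the muscle-type subunit, ran from 279.1 through a median of 404 to 816 CPM over the 8 mice in astrocyte-like wells, against 0, 9.10 and 17.4 CPM in oligodendrocyte-like wells. No mouse of the oligodendrocyte-like class came near the astrocyte-like range, and the gene was 35.5-fold higher (log2 5.15 ± 1.62 SE, edgeR adjusted p = 0.0293, higher in 8 of 8 mice). That call was lost without mimic mouse 6 or either of control mice 1 and 3 (adjusted p 0.0604 to 0.0780). Pfkm shares exon bases with Gm26513 on the same strand and 18 with Senp1 on the other, which an unstranded count cannot separate. Pfkp, the platelet-type subunit, averaged 264.5 ± 104.4 CPM in astrocyte-like and 8.66 ± 7.46 CPM in oligodendrocyte-like wells, and its contrast did not pass the threshold. Pfkl, the liver-type subunit, averaged 185.5 ± 116.3 CPM in endothelial-like, 145.4 ± 90.2 CPM in astrocyte-like, 112.2 ± 124.02 CPM in pericyte-like, 59.8 ± 25.1 CPM in neuroblast-like and 35.8 ± 21.1 CPM in oligodendrocyte-like wells, with no call. Counting intervals and bounds here and below treat each read, pooled over wells and mice, as an independent draw. The reads carried no molecular identifiers, so copies of 1 molecule can be counted more than once. The intervals are therefore too narrow and leave out the spread between wells and between mice.

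Shares per length divide counts by all annotated exon bases of a gene, not by the transcripts in use. These were 3340 bases for Pfkm, 6675 for Pfkl and 13401 for Pfkp, so the size of each share depends on them. Undivided, Pfkm averaged 437 ± 178.6 CPM in astrocyte-like wells, nearer to the Pfkp mean given above than the shares show. Per length, Pfkm made up 74.7 ± 7.3% of the 3 phosphofructokinase genes in astrocyte-like wells (n = 8) and 77.9 ± 10.2% in neuroblast-like wells (n = 3). Its share was 23.3 ± 27.997% in endothelial-like wells (n = 7), 10.8 ± 16.9% in pericyte-like wells (n = 6) and 31.6 ± 19.4% in oligodendrocyte-like wells (n = 7). Pfkl held the larger share there, at 71.8 ± 28.2%, 69.96 ± 40.4% and 61.1 ± 18.3% in those 3 classes, and 13.5 ± 6.0% in astrocyte-like wells. Within mice, the Pfkm share was 44.2 ± 19.0 percentage points higher in astrocyte-like than in oligodendrocyte-like wells (7 of 7 mice, two-sided exact sign-flip permutation p = 0.0156, the smallest 7 mice allow).

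The regulators of the step were sparse. Pfkfb3, a bifunctional enzyme that raises the activator fructose 2,6-bisphosphate, averaged 52.6 ± 52.8 CPM in astrocyte-like, 38.3 ± 12.1 CPM in oligodendrocyte-like and 10.5 ± 29.5 CPM in pericyte-like wells. In pericyte-like wells 83.6 CPM came from mimic mouse 4, and no other mouse was above 0.608 CPM. The gene was lower in pericyte-like than in oligodendrocyte-like wells (log2 −8.60 ± 2.80 SE, adjusted p = 0.0250, lower in 7 of 8 mice), a call lost without control mice 1, 3 or 5 or mimic mice 6 or 8 (adjusted p 0.0507 to 0.0752), with mice of at least 3 wells per class (0.0697), at a lower cluster resolution (log2 −4.28, 0.205) and with the pathway genes left in the clustering (log2 −4.30, 0.204). Pfkfb2, the heart-type isozyme, had 961 counts in oligodendrocyte-like wells of 8 mice and 0 counts in endothelial-like wells of 7 mice. By pooled reads, against a floor of 3 counts over the class, it was at least 99.7-fold lower in endothelial-like wells (edgeR adjusted p = 0.0141). That bound counts reads and not wells. A count of Pfkfb2 was found in only 5.71% of wells in the immediate-early cluster of the oligodendrocyte-like class. In the other cluster of that class the share was 5.58%. With so few wells holding the gene, the size of the difference between wells was not shown. The 1262 exon bases that Pfkfb2 shares with Gm29427 on the same strand and the overlap with Yod1 on the other cannot be told apart.

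Aldolase gave the clearest isozyme split. Aldoc, the brain-type aldolase, ran from 4399 through a median of 9212 to 11584 CPM over the 8 mice in astrocyte-like wells, against 12.8, 69.3 and 275.1 CPM in oligodendrocyte-like wells. The lowest astrocyte-like mouse was mimic mouse 4 and the highest oligodendrocyte-like mouse was control mouse 3, with a wide gap between the classes. The gene was 104.7-fold higher in astrocyte-like wells (log2 6.71 ± 1.49 SE, adjusted p = 0.00195, higher in 8 of 8 mice). A count of Aldoc was found in 98.9% of astrocyte-like and 18.7% of oligodendrocyte-like wells, or 98.9% and 13.1% once each well was thinned to 50000 counts, at medians of 577019 and 708518 counts per well.

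In endothelial-like wells Aldoc stood at 0.0616, 0.248 and 49.5 CPM (lowest, median and highest of 7 mice), and in pericyte-like wells at 0, 0.127 and 91.3 CPM (8 mice). Mimic mice 2 and 6 held nearly all of the endothelial-like level, and control mouse 7 that of the pericyte-like class. Aldoc was higher in astrocyte-like than in endothelial-like wells (log2 11.39 ± 1.96 SE, adjusted p = 8.78e-05, higher in 7 of 7 mice). It was lower in endothelial-like than in oligodendrocyte-like wells (log2 −4.68 ± 1.62 SE, adjusted p = 0.0408, lower in 7 of 7 mice), a call lost without control mice 3 or 5 or mimic mice 4 or 8 (adjusted p 0.0905 to 0.102). It was also lower in pericyte-like than in oligodendrocyte-like wells (log2 −7.94 ± 2.06 SE, adjusted p = 0.00523, lower in 7 of 8 mice).

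Aldoa, the muscle-type and most widely used aldolase, followed another order. It averaged 2565 ± 717 CPM in pericyte-like, 1694 ± 685 CPM in astrocyte-like, 490 ± 215.2 CPM in endothelial-like, 350.7 ± 112.1 CPM in neuroblast-like and 1032 ± 156.7 CPM in oligodendrocyte-like wells. Pericyte-like and astrocyte-like mice overlapped, and so did astrocyte-like and oligodendrocyte-like mice. Pericyte-like wells held 1826, 2313 and 4095 CPM (lowest, median and highest mouse), all above the 258.5, 428 and 909 CPM of endothelial-like wells. The difference was 4.43-fold (log2 2.15 ± 0.29 SE, adjusted p = 5.91e-06, higher in 7 of 7 mice). Aldoa was lower in endothelial-like than in oligodendrocyte-like wells by 3.00-fold (log2 −1.59 ± 0.29 SE, adjusted p = 0.000149, lower in 7 of 7 mice), which is −0.69 relative to the median of all tested genes. In neuroblast-like wells it stood at 480 CPM in mimic mouse 2 and at 285.1 and 286.8 CPM in control mice 1 and 3, lower than in oligodendrocyte-like wells (log2 −2.44 ± 0.43 SE, adjusted p = 0.000441, lower in 3 of 3 mice). That last call was lost with no filter on low counts (adjusted p = 0.0657).

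Per length, Aldoc made up 82.4 ± 3.5% of the aldolase pair in astrocyte-like wells, with every mouse between 77.6 and 87.7%. It made up 1.3 ± 2.2% in endothelial-like, 0.5 ± 1.4% in pericyte-like, 18.2 ± 19.0% in neuroblast-like and 6.4 ± 4.4% in oligodendrocyte-like wells. The share was 76.03 ± 4.6 points higher in astrocyte-like than in oligodendrocyte-like wells (8 of 8 mice, two-sided exact sign-flip permutation p = 0.0078, the smallest 8 mice allow).

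**Figure D3:**
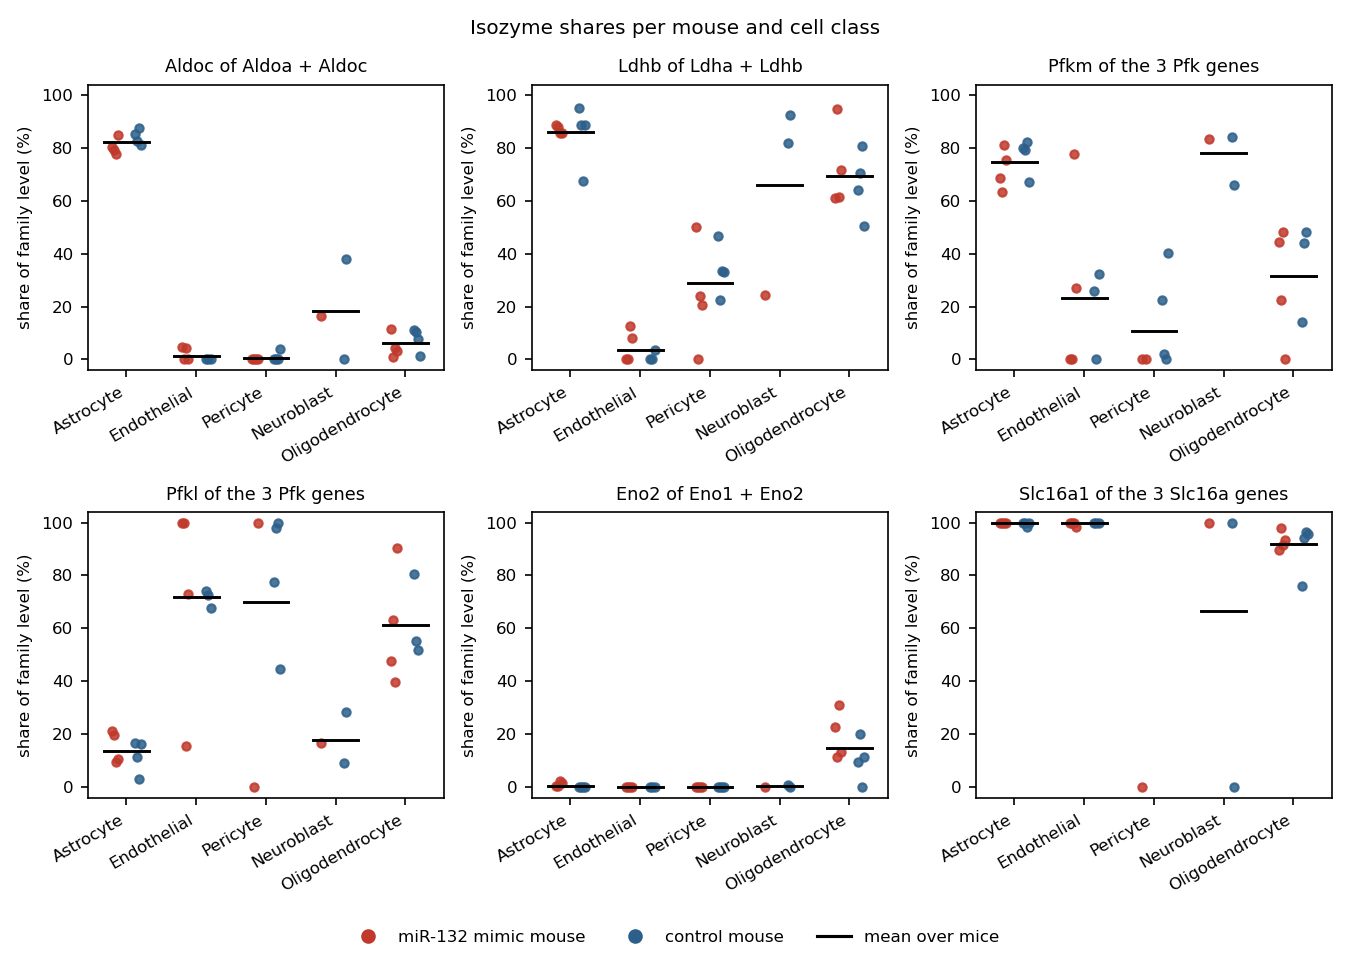
Share of the named isozyme in the summed per-length level of its family (y axis, percent) in each mouse and cell class (x axis); red points are mimic mice, blue points control mice, and black lines the mean over mice. Aldoc is at 77.6% or more in every astrocyte-like mouse and at 11.7% or less in every endothelial-like, pericyte-like and oligodendrocyte-like mouse, while Ldhb is at 12.8% or less in every endothelial-like mouse.

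Of the enzymes after the aldolase split, Tpi1, Gapdh, Eno1 and Eno2 were called in at least 1 contrast. Tpi1, which interconverts the triose phosphates, averaged 481 ± 228.04 CPM in astrocyte-like and 142.1 ± 68.2 CPM in oligodendrocyte-like wells (log2 1.54 ± 0.53 SE, adjusted p = 0.0493, higher in 7 of 8 mice). Control mouse 1 went the other way, with 106.98 CPM in astrocyte-like and 163.002 CPM in oligodendrocyte-like wells. The call was lost on leaving out any mouse but control mouse 1 (adjusted p 0.0635 to 0.134) and with no filter on low counts (0.354). Gapdh, the dehydrogenase often used as a reference gene, held 694 to 1390 CPM in astrocyte-like wells, all above the 150.7 to 398 CPM of endothelial-like wells (log2 2.38 ± 0.36 SE, adjusted p = 1.42e-05, higher in 7 of 7 mice). It was among the 8 members called lower in endothelial-like than in oligodendrocyte-like wells. It averaged 554 ± 232.8 CPM in pericyte-like, 420 ± 55.8 CPM in neuroblast-like and 475 ± 42.6 CPM in oligodendrocyte-like wells. Pgk1, the first ATP-yielding step, and Pgam1 were not called in any contrast, with class means of 31.5 to 95.4 CPM and 27.8 to 47.6 CPM.

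Eno1, the widely used enolase, held 858, 1037 and 1273 CPM (lowest, median and highest of 8 mice) in astrocyte-like wells, against 79.5, 104.7 and 123.9 CPM in oligodendrocyte-like wells. The classes were far apart and the gene was 8.81-fold higher (log2 3.14 ± 0.43 SE, adjusted p = 5.18e-06, higher in 8 of 8 mice). Endothelial-like wells stood between them at 134.3 to 458 CPM, and Eno1 and Ldha were the 2 members called higher there than in oligodendrocyte-like wells. The number of members higher in that contrast was 1 to 3 when control mice 5 or 7 or mimic mice 4, 6 or 8 were left out in turn. Eno2, the enolase that marks neurons and is known from maturing oligodendrocytes, averaged 15.1 ± 9.06 CPM in oligodendrocyte-like wells, was at 0 in control mouse 5, and was at 9.92 CPM or more in the other 7 mice. In pericyte-like wells 2 counts were found in all, against 2998 in oligodendrocyte-like wells, 343.3-fold lower by CPM (95% counting interval 94.96 to 2836; adjusted p = 0.000742, lower in 7 of 8 mice). It was lower also in endothelial-like than in oligodendrocyte-like wells, at 0 to 0.381 CPM against 0 to 27.2 CPM per mouse (log2 −8.26 ± 1.97 SE, adjusted p = 0.00317, lower in 6 of 7 mice). In astrocyte-like wells Eno2 reached 20.7 CPM in mimic mouse 6 and 11.6 CPM in mimic mouse 8, and no other mouse was above 2.46 CPM. That class was higher than the endothelial-like class (log2 5.06 ± 1.67 SE, adjusted p = 0.0363, higher in 5 of 7 mice), a call lost without control mouse 7 or mimic mice 2, 4, 6 or 8 (adjusted p 0.0655 to 0.0969). The Eno2 share of the enolase pair per length was 14.9 ± 9.5% in oligodendrocyte-like wells and at most 2.18% in any astrocyte-like mouse.

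Pkm, pyruvate kinase of muscle and brain, overlapped between all 5 classes. Its mean was 584 ± 214.4 CPM in the pericyte-like class, 468 ± 213.1 CPM in the endothelial-like class, 401 ± 194.2 CPM in astrocyte-like, 322.3 ± 171.5 CPM in neuroblast-like and 191.5 ± 41.4 CPM in oligodendrocyte-like wells, and no contrast was called. Pkm shares 767 exon bases with Gm49759 on the same strand.

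The lactate dehydrogenase pair differed in its order over the classes. Ldha encodes the subunit that favours lactate production, and Ldhb the subunit that favours pyruvate. Ldha held 365.6, 683 and 1048 CPM in endothelial-like wells (lowest, median and highest of 7 mice), 138.7, 577 and 1006 CPM in pericyte-like wells and 108.2, 337.9 and 783 CPM in astrocyte-like wells (8 mice each), against 6.64, 71.5 and 92.3 CPM in oligodendrocyte-like wells. None of those 3 classes overlapped with the oligodendrocyte-like class, while they overlapped with each other. Relative to oligodendrocyte-like wells, Ldha was 9.13-fold higher in endothelial-like (log2 3.19 ± 0.57 SE, adjusted p = 0.000113), 5.43-fold higher in pericyte-like (2.44 ± 0.53, 0.000941) and 5.18-fold higher in astrocyte-like wells (2.37 ± 0.54, 0.00226), in every mouse of each contrast.

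Ldhb held 792, 1134 and 1228 CPM in astrocyte-like wells, against 35.6, 64.7 and 132.9 CPM in oligodendrocyte-like wells. All 8 mice were higher in astrocyte-like wells (log2 3.82 ± 1.11 SE, adjusted p = 0.0176). In endothelial-like wells Ldhb had 0 CPM in mimic mice 2 and 4 and control mice 3 and 5, and 27.4, 30.9 and 26.6 CPM in mimic mice 6 and 8 and control mouse 7. Astrocyte-like wells were higher than endothelial-like wells (log2 7.62 ± 1.48 SE, adjusted p = 0.000373, higher in 7 of 7 mice). Relative to oligodendrocyte-like wells it was lower by 13.9-fold (log2 −3.79 ± 1.34 SE, adjusted p = 0.0458, lower in 7 of 7 mice), a call lost without control mice 1, 3, 5 or 7 or mimic mice 2 or 4 (adjusted p 0.0573 to 0.122). A count of Ldhb was found in 3.74% of endothelial-like wells and 91.6% of astrocyte-like wells, at medians of 574174 and 577019 counts per well (2.80% and 89.5% after thinning).

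Per length, Ldhb made up 86.1 ± 8.1% of the pair in astrocyte-like wells, 66.2 ± 36.6% in neuroblast-like and 69.3 ± 13.6% in oligodendrocyte-like wells. It made up 28.9 ± 15.9% in pericyte-like and 3.5 ± 5.1% in endothelial-like wells. Within mice the share was 66.6 ± 17.1 points lower in endothelial-like than in oligodendrocyte-like wells (7 of 7 mice, two-sided exact sign-flip permutation p = 0.0156). It was 40.5 ± 27.03 points lower in pericyte-like than in oligodendrocyte-like wells (8 of 8 mice, exact sign-flip permutation p = 0.0078). The exon bases used were 1570 for Ldhb and 3310 for Ldha, which raises the Ldhb share above that of the counts. Undivided, oligodendrocyte-like wells averaged 67.1 ± 31.8 CPM of Ldhb and 62.1 ± 31.1 CPM of Ldha.

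The monocarboxylate carriers, which move lactate and pyruvate across the cell membrane, differed in kind as well as in level. Slc16a1 (MCT1), the carrier of vessels and oligodendrocytes, held 263.4, 1051 and 1775 CPM in endothelial-like wells (lowest, median and highest of 7 mice). In oligodendrocyte-like wells it held 123.9, 165.1 and 282.3 CPM and in astrocyte-like wells 26.8, 61.2 and 168.997 CPM. The lowest endothelial-like mouse, control mouse 5, lay just under the highest oligodendrocyte-like mouse, which was the same animal. Astrocyte-like wells were lower than endothelial-like wells (log2 −3.70 ± 0.77 SE, adjusted p = 0.000817, lower in 7 of 7 mice). In pericyte-like wells only 3 counts of Slc16a1 were found in all 8 mice. The same gene had 68054 counts in endothelial-like wells, a ratio of 16696 (95% counting interval 5713 to 80965; adjusted p = 6.18e-10), and 36178 counts in oligodendrocyte-like wells, a ratio of 2762 (945 to 13394; adjusted p = 7.99e-10). Pericyte-like wells were lower in 7 of 7 and in 8 of 8 mice.

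Slc16a7 (MCT2), a carrier of high lactate affinity known from neurons, was highest of the 5 classes in oligodendrocyte-like wells, at 3.72 to 43.9 CPM per mouse, with 4850 counts in all. Outside the 5 classes, 18 oligodendrocyte precursor-like wells, too few per mouse for a test, held 1156 counts of the gene at a mean of 93.1 CPM per well, against 26.97 CPM per oligodendrocyte-like well, and 14 smooth muscle-like wells held 88 counts. It had 0 counts in endothelial-like and pericyte-like wells. By pooled reads, against a floor of 3 counts over the class, it was at least 503-fold and at least 370-fold lower there than in oligodendrocyte-like wells (edgeR adjusted p = 0.00150 and 0.000900). These bounds count reads and not wells. In astrocyte-like wells it had 1 count, a ratio of 1360 (95% counting interval 244.04 to 53741; adjusted p = 0.00262). Control mouse 3 had 15.7 CPM in neuroblast-like wells, and the other mice of that class had 0. Slc16a3 (MCT4), the carrier of strongly glycolytic cells, was at or under 0.56 CPM in every astrocyte-like mouse and reached 89.1 CPM in pericyte-like wells of mimic mouse 4, where 1 well held it. Its contrasts were not called. Per length, Slc16a1 made up 99.8 ± 0.6% of the 3 carriers in both astrocyte-like and endothelial-like wells and 91.9 ± 6.9% in oligodendrocyte-like wells.

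In mitochondrial pyruvate entry, calls between classes fell on the kinases and not on the carrier. Mpc1 and Mpc2, the subunits of the pyruvate carrier, had class means of 26.7 to 86.7 CPM and 38.6 to 106.1 CPM, with no call. Mpc1 held 1.90 to 63.3 CPM in endothelial-like and 25.2 to 29.5 CPM in neuroblast-like wells, both below the 65.2 to 121.03 CPM of oligodendrocyte-like wells. In pericyte-like over oligodendrocyte-like wells it missed the threshold by little (log2 −2.98 ± 1.11 SE, edgeR adjusted p = 0.0507). Mpc1 reads are uncertain. The pseudogene Mpc1-ps had 6505 counts beside 28597 for Mpc1, and 4930506C21Rik, which overlaps Mpc1 by 480 exon bases on the other strand, averaged 52.6 CPM in oligodendrocyte-like wells and at most 4.85 CPM in the other 4 classes. Pdha1, the catalytic subunit gene of pyruvate dehydrogenase, averaged 138.1 ± 83.7 CPM in astrocyte-like and 82.02 ± 37.2 CPM in oligodendrocyte-like wells, also with no call; it overlaps Map3k15 on the other strand by 603 exon bases.

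Of the kinases that switch pyruvate dehydrogenase off, Pdk2 had 184.8, 462 and 586 CPM in astrocyte-like wells and 0, 2.57 and 339.3 CPM in endothelial-like wells (lowest, median and highest mouse). Mimic mouse 2 alone made the classes overlap. Pdk2 was higher in astrocyte-like wells (log2 5.01 ± 1.48 SE, adjusted p = 0.0172, higher in 7 of 7 mice), a call lost without mimic mouse 8 (adjusted p = 0.0562). Pdk4, the kinase known to rise on fasting, had 9.59 to 158.6 CPM in astrocyte-like wells, against 5.51 CPM in endothelial-like wells of mimic mouse 4 and 0 CPM in the 6 other mice (log2 9.77 ± 2.67 SE, adjusted p = 0.00992, higher in 7 of 7 mice). Pdk1, a target of hypoxia-inducible factor, averaged 19.3 ± 28.7 CPM in astrocyte-like wells and less in each of the other 4 classes, with no call; outside these, 16 fibroblast-like wells averaged 166.1 CPM per well.

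Both glycogen members had their highest mean in astrocyte-like wells, and Pygb alone was called. Pygb, the brain glycogen phosphorylase, held 226.8, 630 and 1359 CPM there, against 7.28, 31.2 and 65.8 CPM in oligodendrocyte-like wells. The gap between the classes was complete, and the gene was 17.8-fold higher (log2 4.15 ± 1.31 SE, adjusted p = 0.0296, higher in 8 of 8 mice), a call lost without control mice 3 or 7 or mimic mice 4 or 8 (adjusted p 0.0510 to 0.0604). In endothelial-like wells mimic mouse 6 had 53.97 CPM and no other mouse was above 1.24 CPM. Pygb was higher in astrocyte-like than in endothelial-like wells (log2 10.56 ± 2.10 SE, adjusted p = 0.000477, higher in 7 of 7 mice). It was lower in endothelial-like than in oligodendrocyte-like wells (log2 −6.41 ± 1.96 SE, adjusted p = 0.0193, lower in 6 of 7 mice), a call lost without control mice 3 or 7 or mimic mice 2 or 8 (adjusted p 0.0524 to 0.0640). Pericyte-like wells held 0 to 481 CPM per mouse and were higher than endothelial-like wells (log2 6.55 ± 1.93 SE, adjusted p = 0.0261, higher in 5 of 7 mice), a call lost without control mice 3 or 7 or mimic mice 2, 4 or 8 (adjusted p 0.0509 to 0.110). With mice of at least 3 wells per class, those last 2 calls were lost as well, at log2 −3.06 and 3.73 (adjusted p 0.273 and 0.254), and by sample titles at log2 −3.10 and 3.41 (0.208 and 0.220), so the size of both folds rests on which mice enter. Gys1, glycogen synthase of muscle and brain, averaged 128.2 ± 93.8 CPM in astrocyte-like and 6.56 ± 5.44 CPM in oligodendrocyte-like wells, with no call, and overlaps Ruvbl2 by 310 exon bases on the other strand.

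In all, 71 isozyme shares and contrasts were tested. None had an adjusted p below 0.05 in the exact sign-flip permutation tests, and the lowest was 0.0693; 22 had an unadjusted p below 0.05. With wells tied to mice by the sample titles, 18 had an adjusted p below 0.05. The smallest p that the design allows was 0.00781 with 8 mice, 0.0156 with 7 mice and 0.25 with 3 mice.

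Genes around the pathway were read from a list of 69, of which 54 were tested between classes. In astrocyte-like over oligodendrocyte-like wells 4 were higher and 3 lower (12.96% called, against 14.1% of all tested genes), in endothelial-like over oligodendrocyte-like wells 4 and 6 (18.5%, against 18.8%), and in pericyte-like over oligodendrocyte-like wells 4 and 11 (27.8%, against 22.7%). In pericyte-like over endothelial-like wells 2 were higher and 5 lower (12.96%, against 9.69%), in astrocyte-like over endothelial-like wells 8 and 4 (22.2%, against 16.4%), and in neuroblast-like over oligodendrocyte-like wells 0 and 4 (7.41%, against 4.79%). The first 2 shares were near the background. Ppp1r3c, which targets a phosphatase to glycogen, averaged 174.01 ± 65.98 CPM in astrocyte-like wells (n = 8), against 0.0522 ± 0.138 CPM in endothelial-like wells (n = 7; adjusted p = 3.9e-05) and 13.8 ± 35.7 CPM in oligodendrocyte-like wells (n = 8). Pygm, the muscle glycogen phosphorylase, averaged 43.98 ± 25.04 CPM in astrocyte-like and 68.8 ± 69.7 CPM in pericyte-like wells and had 0 counts in oligodendrocyte-like wells. Against a floor of 3 reads pooled over the class it was at least 2603-fold higher in astrocyte-like and at least 5348-fold higher in pericyte-like wells. These bounds, too, count reads and not wells or mice.

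Among the shuttle genes, which carry reducing equivalents of glycolysis into mitochondria, the classes that lacked a gene differed from gene to gene. Gpd1, the cytosolic glycerol-3-phosphate dehydrogenase, averaged 0 CPM in pericyte-like wells and 121.6 ± 35.99 CPM in oligodendrocyte-like wells, at least 1799-fold lower by pooled reads. Its mitochondrial partner Gpd2 averaged 0.572 ± 1.52 CPM in pericyte-like and 305.9 ± 163.2 CPM in endothelial-like wells. Slc25a13, an aspartate and glutamate carrier, was at 0 in astrocyte-like and pericyte-like wells and at 47.7 ± 22.6 CPM in oligodendrocyte-like wells, and Got1, the cytosolic aspartate aminotransferase, was at 0 in endothelial-like wells and at 35.6 ± 18.6 CPM in oligodendrocyte-like wells. In neuroblast-like wells Gyg, the glycogen primer, was at 0, against 79.4 ± 43.6 CPM in oligodendrocyte-like wells.

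The second comparison asked what the miR-132 mimic did to these genes. Over all kept wells of a mouse, 24 of the 31 members passed the filter on low counts, and none was called in mimic over control mice (edgeR, 8823 genes tested, background 0%). With an unadjusted p below 0.05 there were 0 members, against 4.48% of all tested genes, and DESeq2 also called 0 members. By sign, 20 members were on the higher and 4 on the lower side, and their median log2 fold was 0.179, where all tested genes had a median of 0.00043. The spread of that member median between mice was an SD of 0.267. Hk2, Slc16a3, Slc2a3, Pdk1, Pdk4, Pfkfb2 and Gys1 did not pass the filter. In a sum over all wells, fewer cells of a class and less RNA per cell cannot be told apart, and astrocyte-like wells made up 16.5 ± 5.68% of a mimic mouse and 11.4 ± 3.99% of a control mouse (SD, n = 4 each). The part of that mix in the signs was not tested.

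The 6 members with the smallest p over all kept wells were Pfkp, Pfkm, Pdk2, Pygb, Aldoc and Pgk1, each with an adjusted p of 1. Aldoc had 2413, 504, 1497 and 1590 CPM in mimic mice 2, 4, 6 and 8, against 628, 1237, 1040 and 1347 CPM in control mice 1, 3, 5 and 7. Mimic mouse 2 was the highest and mimic mouse 4 the lowest of all 8, so the control mice lay inside the mimic range (log2 0.53 ± 0.44 SE, p = 0.248). Without mimic mouse 2 the log2 fold was −0.23. Pfkm had 154.9, 48.5, 152.6 and 67.1 CPM in the mimic mice and 68.9, 82.4, 74.7 and 65.3 CPM in the control mice. Here, too, the mimic mice lay on both sides of the control mice (log2 0.58 ± 0.39 SE, p = 0.165). With wells tied to mice by the sample titles, the log2 fold changed sign for Aldoc (−0.25), Pfkm (−0.38), Pygb (−0.36) and Pgk1 (0.14), again with no call.

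Pygb had 288.9, 108.2, 120 and 163.01 CPM in the mimic mice and 59.2, 127.97, 130 and 156.3 CPM in the control mice. Only mimic mice 2 and 8 were above every control mouse (log2 0.55 ± 0.40 SE, p = 0.193), and without mimic mouse 2 the log2 fold was −0.025. Pdk2 had 222.5, 113.6, 171.6 and 137.6 CPM in the mimic mice and 108.1, 127.05, 119.4 and 152.2 CPM in the control mice (log2 0.34 ± 0.24 SE, p = 0.181), and Pfkp had 84.1, 45.9, 69.3 and 47.05 CPM in the mimic mice and 22.1, 37.8, 62.9 and 75.4 CPM in the control mice (log2 0.59 ± 0.37 SE, p = 0.138). Both overlapped between treatments. Pgk1 was the one on the lower side, with 65.4, 57.6, 59.3 and 47.9 CPM in the mimic mice and 73.6, 51.02, 75.9 and 75.7 CPM in the control mice (log2 −0.31 ± 0.26 SE, p = 0.267). Control mouse 3 alone kept the Pgk1 groups from separating.

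**Figure D4:**
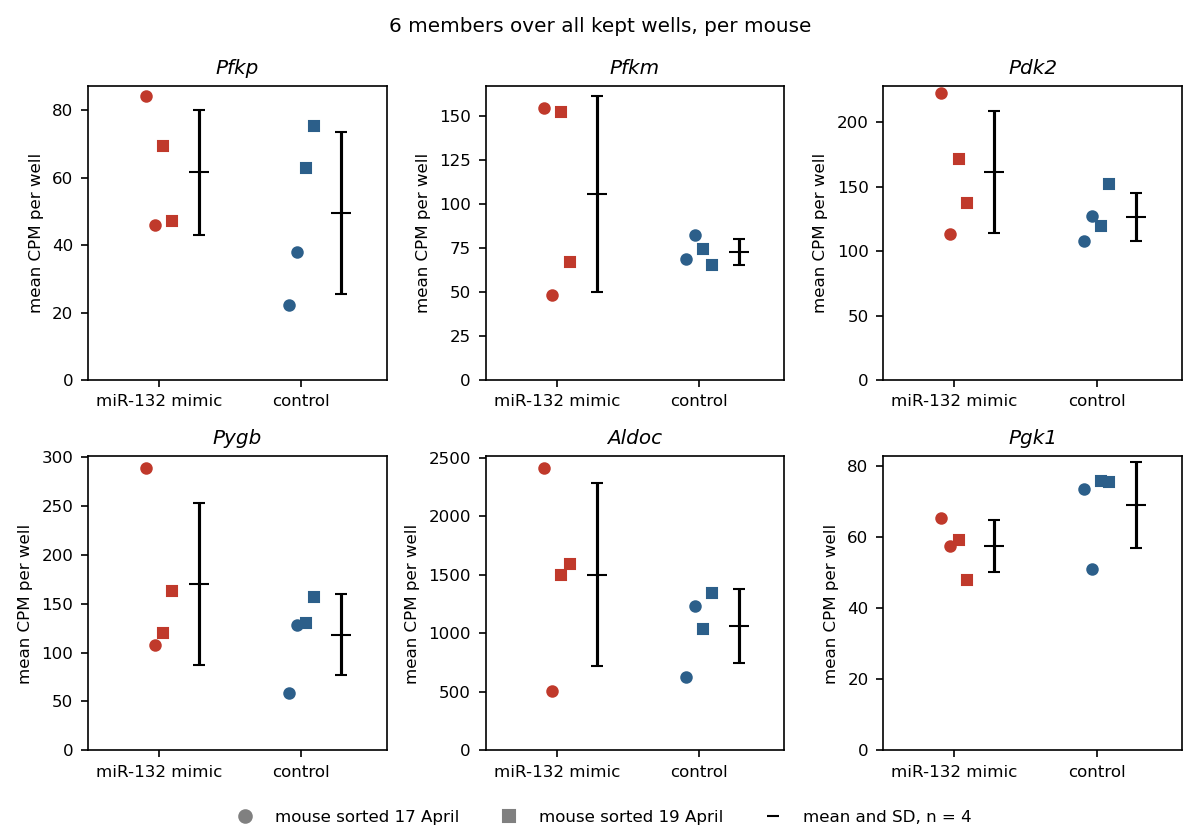
Mean CPM per well (y axes, from 0) of 6 members over all kept wells in 4 miR-132 mimic mice (left, red) and 4 control mice (right, blue); circles are mice sorted on 17 April, squares mice sorted on 19 April, and the bars are the mean and SD. The groups overlap in all 6 panels, and mimic mouse 2 is the highest point for Aldoc, Pygb, Pdk2, Pfkp and Pfkm.

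Within sort dates, the mean of the mimic mice minus that of the control mice was uneven. For Aldoc it was 526.1 CPM on 17 April and 349.4 CPM on 19 April, and for Pfkm 26.005 and 39.9 CPM. Pygb had 104.9 CPM on 17 April and −1.53 CPM on 19 April, and Pfkp had 35.05 and −11.02 CPM, so both changed sign between the dates. Pdk2 had 50.5 and 18.8 CPM, and Pgk1 had −0.781 and −22.2 CPM.

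Within classes, no member was called either, by edgeR or by DESeq2, and no member had an unadjusted p below 0.05. Oligodendrocyte-like wells had 22 tested members with a median log2 fold of −0.120, beside 0.005 for all 7408 tested genes (background 0% adjusted, 2.86% unadjusted). Astrocyte-like wells had 25 with a median of 0.148, beside 0.205 for 7480 genes (0% and 1.71%). Endothelial-like wells had 15 with a median of 0.133, beside 0.304 for 5799 genes (0% and 1.97%), and pericyte-like wells had 17 with 0.033, beside −0.029 for 5439 genes (0% and 0.754%). The SD of the member median between mice was 0.128, 0.386, 0.246 and 0.451 in those 4 classes, at least as large as each median. A test of whether the mimic effect differs between these classes called 0 of 14537 genes (edgeR, 0%), and 1 of the 30 members in it had an unadjusted p below 0.05 (Aldoc, p = 0.0111). Neuroblast-like wells had too few mice for a test between treatments.

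**Figure D5:**
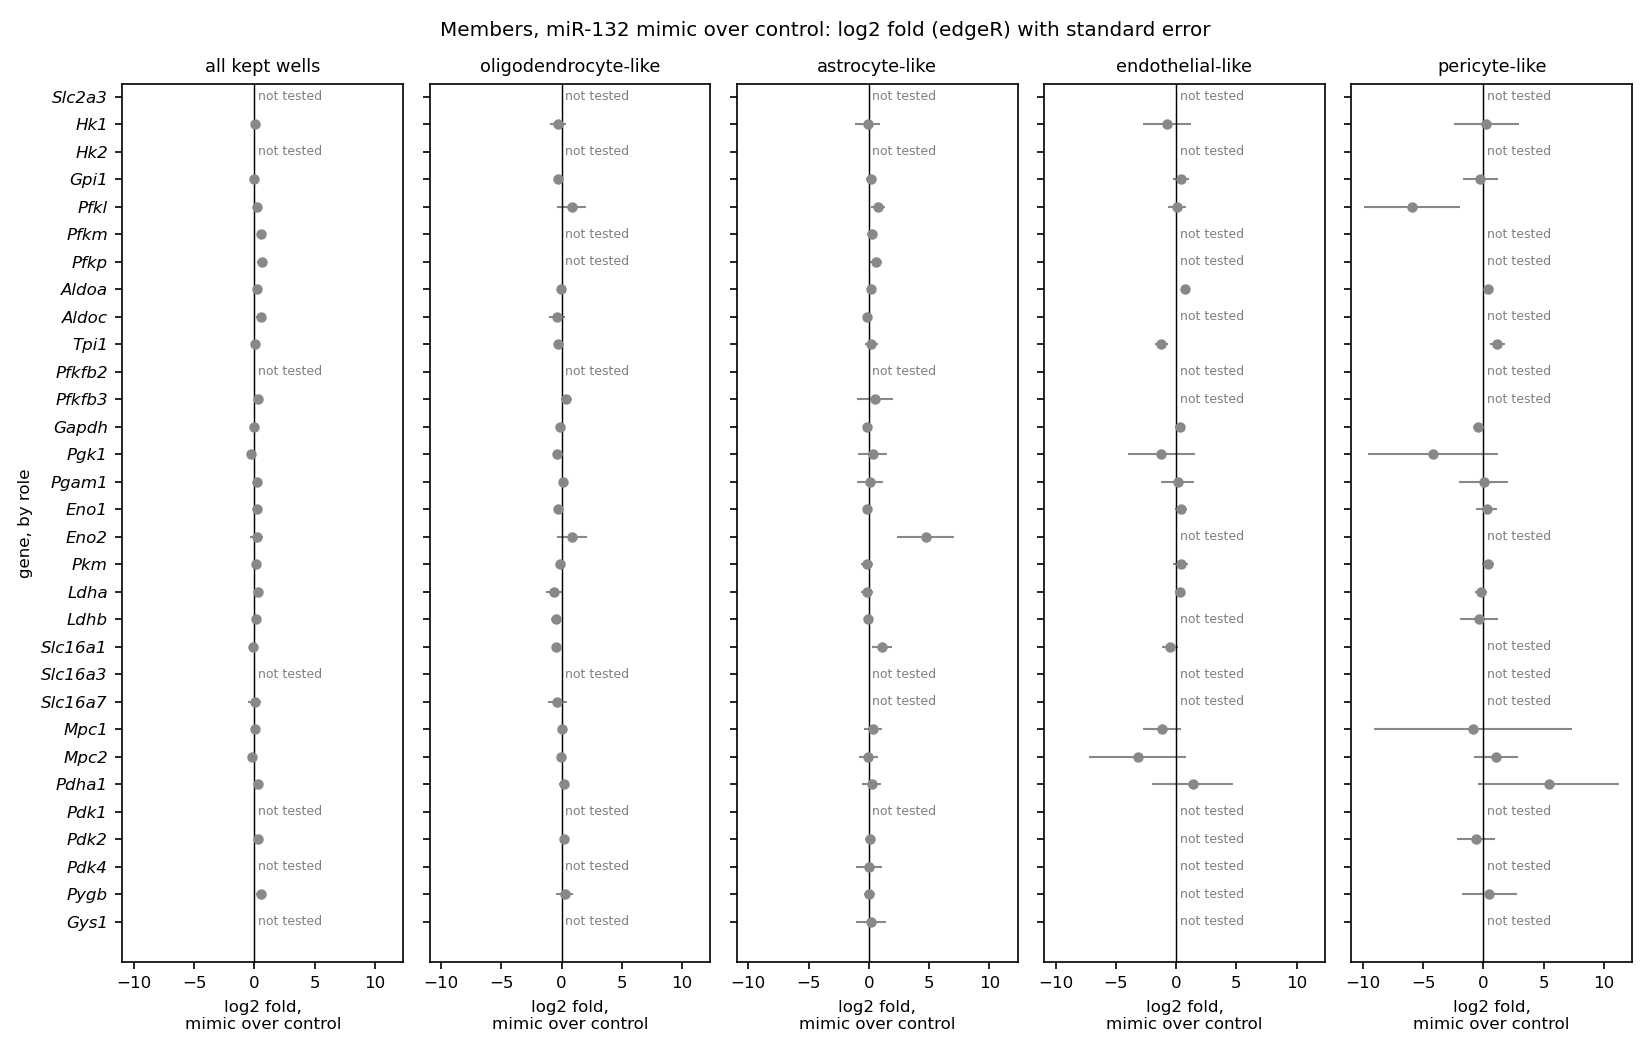
Log2 fold of miR-132 mimic over control with its standard error (x axis) for each member (rows, by role) over all kept wells and within 4 classes (panels). No point passed the adjusted threshold, members written as not tested failed the filter on low counts, and the bars widen from the pool of all wells to the pericyte-like class.

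Among the 5 members with a seed match, Aldoa had a log2 fold of 0.18 ± 0.19 SE and Pdha1 one of 0.26 ± 0.27 SE over all kept wells, both on the higher side and not called; Hk2, Pdk4 and Pfkfb2 were not tested. The isozyme shares over all kept wells were compared in 13 exact permutation tests over the 70 splits of the mice, and all had an adjusted p of 1. Of the 69 genes around the pathway, 41 were tested over all kept wells with edgeR. None was called, and the lowest adjusted p was 0.835. An unadjusted p below 0.05 was found for 4 of them (9.76%), against 4.48% of all tested genes.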

How the data were processed

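Single cells were sorted into plates and made into Smart-seq2 libraries with Nextera XT, per the labels' protocols. The authors deposited raw counts per gene and well, unnormalized and without molecular identifiers; the submitters' processing notes name FastQC, STAR, Subread, featureCounts 1.5.1, Seurat 2.3.1 and mm10. The members and gene lists were chosen with earlier results of these data known. Wells with at least 50000 counts and 1000 genes were kept. Clustering used scanpy 1.11.5 with 2000 variable genes, 20 components, 15 neighbours and Leiden resolution 1, and clusters were named from marker lists (3 markers at 50 CPM or more). No doublet caller was run. Counts were summed per mouse, or per mouse and class with at least 5 wells, and tested with edgeR 4.0.16 in R 4.3.3 (quasi-likelihood; class and mouse, or sort date and treatment). Tests are given for up to 8 called members per contrast, by absolute log2 fold, for the 6 smallest p between treatments, and for up to 3 called genes around the pathway per contrast. DESeq2 1.42.0 was the alternative. Levels per kb used union exons of GENCODE M21, which matched all 31 members. Neuroblast-like wells were not tested between treatments. Scripts were tested on simulated data.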

Additional observations from a re-analysis of the deposited data

Results flagged for a closer look

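In 99 sets of 4 to 8 mice tested for a mouse far from the others, 21 had one. A chance rate of about 1 in 20 would hold only for independent sets of normally spread values. Many of the 21 were levels near the floor or shares near their limit, and some held the same genes and mice. The 21 can therefore not be compared with that rate. Between treatments, control mouse 3 had 51.02 CPM of Pgk1 over all kept wells, and the other control mice 73.58 to 75.89 CPM.

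Among isozyme shares, Slc16a1 was at 76% in oligodendrocyte-like wells of control mouse 1 (others 89.76 to 98.11%), at 98.41% in astrocyte-like wells of control mouse 5 and at 98.44% in endothelial-like wells of mimic mouse 8 (others at least 99.96% in both). Ldhb was at 67.41% in astrocyte-like wells of control mouse 5 (others 85.73 to 95.28%). In endothelial-like wells mimic mouse 6 had 77.88% Pfkm (others at most 32.41%) and 15.66% Pfkl (others at least 67.59%). In pericyte-like wells control mouse 7 had 3.837% Aldoc and 0.08209% Eno2.

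Control mouse 7 also had 91.32 CPM of Aldoc, 0.2012 CPM of Eno2 and 44.15 CPM of Pfkm in pericyte-like wells. The same class held 83.56 CPM of Pfkfb3 in mimic mouse 4, 144.6 CPM of Pdk4 in control mouse 5, 23.88 CPM of Pfkfb2 in mimic mouse 8 and 920.3 CPM of Tpi1 in mimic mouse 2 (other mice 115.2 to 482.9 CPM). Endothelial-like wells held 339.3 CPM of Pdk2 in mimic mouse 2 (others at most 41.88 CPM), 5.51 CPM of Pdk4 in mimic mouse 4 and 53.97 CPM of Pygb in mimic mouse 6. Ldhb reached 132.9 CPM in oligodendrocyte-like wells of control mouse 3 (others 35.55 to 80.82 CPM). The single count of Slc16a7 in astrocyte-like wells gave 0.06603 CPM in mimic mouse 2.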

How the results depend on the processing

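No paired analysis was possible because, between treatments, each number stands for 1 mouse and the treatments share none; the contrasts between classes were made within mice. Of the values of single members between classes, 498 kept their direction and side of the threshold and 58 fell short of it; between treatments 84 kept theirs and 6 changed sign. In endothelial-like over oligodendrocyte-like wells, scaling by library size took Aldoc to an adjusted p of 0.0610 and Ldhb to 0.0740, and the sample titles took Aldoc to 0.0628 and Pygb to 0.208 (edgeR). With wells tied to mice by the sample titles, the log2 folds of mimic over control became −0.38 for Pfkm, −0.36 for Pygb, −0.25 for Aldoc and 0.14 for Pgk1. The oligodendrocyte-like member median became 0.076, and 18 isozyme shares between classes passed the threshold. Leaving out each mouse in turn gave −0.025 to 0.749 for Pygb, −0.23 to 0.852 for Aldoc, −0.166 to 0.033 for the oligodendrocyte-like median and −0.130 to 0.432 for the endothelial-like median, which was 0.476 with no filter on low counts.

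Counts of called members moved as follows, and the cause was not tested. DESeq2 called 12 higher in astrocyte-like over oligodendrocyte-like wells, 4 higher in endothelial-like over oligodendrocyte-like wells, 4 higher and 9 lower in pericyte-like over oligodendrocyte-like wells, 6 higher and 4 lower in pericyte-like over endothelial-like wells, 16 higher in astrocyte-like over endothelial-like wells, and 1 higher and 3 lower in neuroblast-like over oligodendrocyte-like wells. The lower count in astrocyte-like over oligodendrocyte-like wells was 2 at either other cluster resolution and by titles, 3 with pathway genes left in the clustering, and 1 to 2 without a mouse. The higher count in endothelial-like over oligodendrocyte-like wells was 1 at the lower resolution, with at least 3 wells or with no filter, and 1 to 3 without a mouse. For pericyte-like over oligodendrocyte-like wells the higher count was 4 by library size and 2 by titles. For pericyte-like over endothelial-like wells the higher count was 4 at the lower resolution, by library size and with pathway genes left in, 1 with at least 3 wells, and 1 to 3 without a mouse; the lower count was 2 with no filter and by titles, and 1 to 2 without a mouse. For neuroblast-like over oligodendrocyte-like wells the lower count was 4 with at least 3 wells, 0 with no filter and 3 by titles. At the higher resolution 87 wells with all 10 endothelial markers formed an unnamed cluster and 20 wells stayed endothelial-like, too few per mouse for contrasts. Few wells per mouse and class limit what the sparse members can show.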
